A study of Rattus norvegicus with 6 samples.

Results

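The phagocyte NADPH oxidase is described here through 7 genes: Cybb and Cyba for its membrane core, Ncf1 and Ncf4 for its cytosolic regulators, the small GTPases Rac1 and Rac2, and Nox4, the catalytic subunit of a related oxidase outside phagocytes. Members were matched by gene name, and all their array probes were taken. The 7 genes had 11 probes, of which 10 passed the filter on dim probes, and all 7 were among the 19569 genes tested.

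In the phagocyte enzyme the Cybb and Cyba proteins form flavocytochrome b558 in the membrane, which passes electrons from NADPH to oxygen and so makes superoxide. It is silent until cytosolic subunits, Ncf1 and Ncf4 among them, move from the cytosol to the membrane and a Rac protein loaded with GTP joins them. Nox4 needs the Cyba protein but none of the cytosolic subunits, and releases mainly hydrogen peroxide. In bone marrow the oxidase is known from neutrophils, monocytes, macrophages and osteoclasts, and Nox4 from mesenchymal cells.

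Rat bone marrow stromal cells, taken from tibia marrow, were grown for 7 days either on titanium modified with tantalum (Ta) or on simple titanium (Ti). Each group has 3 arrays, which the study's design text calls independent experiments. Total RNA was labelled with Cy3 and hybridised to 1-colour Agilent arrays, all 6 on 1 slide, and the comparison asks which transcripts differ between the surfaces. The strain, sex and age of the rats, how the cells were purified and how the tantalum was applied are not given in the sources used here. Marrow cultures of this kind can hold blood cells beside stromal cells, and in RNA from a mixed culture fewer cells of a type and less RNA per cell cannot be told apart.

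Values are log2 of the scanner's processed signal after each array was scaled to the 75th percentile of its own spots, and are called log2 signal below. Differences are Ta minus Ti with limma's moderated standard error (SE). A gene was called at an adjusted p under 0.05, with Benjamini-Hochberg adjustment over all 19569 genes. The scanner software put 62.7% to 65.9% of an array's spots well above background and marked 0 as saturated. The whole comparison was sensitive to single arrays: 813 genes were called with all 6 arrays and 3212 without Ta replicate 1. Without Ti replicate 2, which the scanner software marked for evaluation, 1563 were called. Leaving out any of the remaining arrays gave 0 calls, with between 3815 and 4462 genes at an unadjusted p under 0.05 in limma.

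The probes are 60 bases long, and the file headers place them on the rn4 build. Cybb was read at chrX:25514215-25514274 (A_44_P933121) and chrX:25518505-25518564 (A_42_P538670), both on the minus strand. Cyba was read at chr19:52713156-52713215 and Rac2 at chr7:116520067-116520126, also on the minus strand. Ncf1 was read at chr12:23587232-23587291 (A_64_P051322) and chr12:23585727-23585786 (A_43_P12916), and Ncf4 at chr7:116190216-116190275, on the plus strand. Nox4 had probes at chr1:143604665-143604724 and chr1:143584026-143586154, and Rac1 at chr12:11401260-11401319 and chr12:11390067-11391924, all on the plus strand. The second intervals of Nox4 and Rac1 span 2129 and 1858 bases for 60 bases of probe, so these 2 probes cross at least 1 intron of the genome and match spliced RNA. Exon and UTR annotation of this build was not used here. The readings below turn on which stretch of a transcript a probe matched, and 4 probes are shown. They are the second Cybb probe, the Ncf4 probe, the Nox4 probe that stayed at background and the second Rac1 probe.
Cybb: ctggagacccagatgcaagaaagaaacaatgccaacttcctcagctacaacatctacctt
Ncf4: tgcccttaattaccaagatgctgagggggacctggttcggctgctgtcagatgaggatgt
Nox4: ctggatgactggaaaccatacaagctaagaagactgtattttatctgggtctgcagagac
Rac1: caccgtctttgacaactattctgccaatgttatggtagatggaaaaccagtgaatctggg

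None (0) of the 7 oxidase genes was called as different between the surfaces, where 4.15% of all genes tested were called (2.67% higher on Ta and 1.48% lower). At an unadjusted p under 0.05 in limma 3 of the 7 passed, 1 higher and 2 lower, beside 30.0% of all genes. The groups did not overlap for the same 3 genes, against 35.9% of all genes: Ncf1 lay above (19.5% of all genes did) and Nox4 and Rac1 lay below (16.4%). These shares are close to the background and are no result about the oxidase as a group. The median difference of the 7 genes was -0.13, beside 0.03 over all genes. At probe level 0 of the 10 tested probes were called, where 4.31% of all probes were, and the smallest adjusted p of any gene in the fit was 0.0263.

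**Figure D1:**
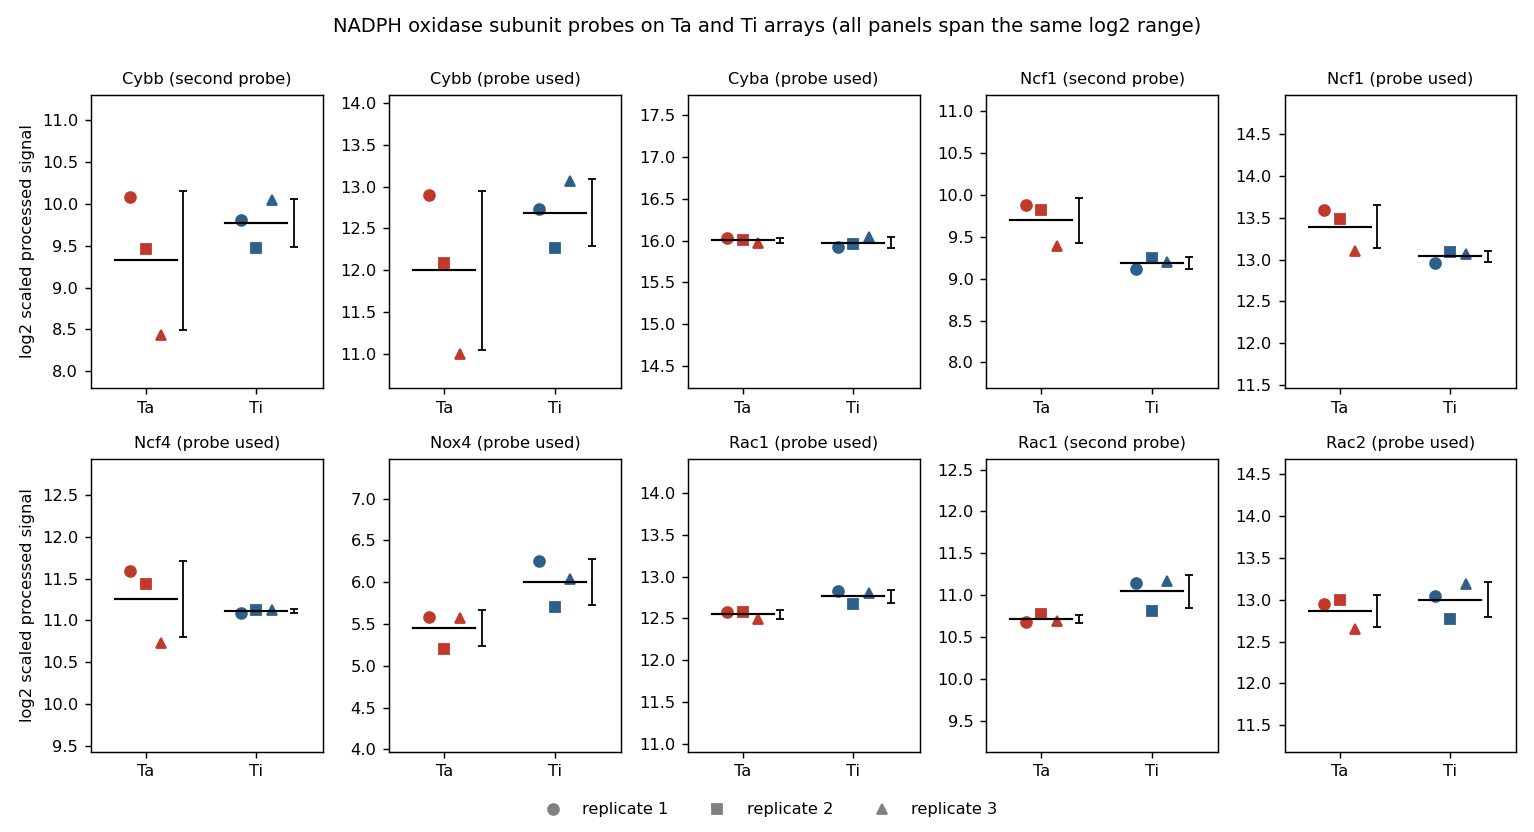
Log2 scaled processed signal (vertical axes, each panel spanning the same log2 range) of the 10 tested oxidase probes on the 3 Ta arrays (red) and the 3 Ti arrays (blue); symbols mark the replicate, horizontal lines the group mean and bars the SD. Cybb spreads from 11.00 to 12.90 on Ta, Cyba stays between 15.93 and 16.04 on all arrays, and both Ncf1 probes lie higher on every Ta array than on any Ti array.

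Cybb, the catalytic gp91phox subunit, was the most variable of the 7 between arrays of 1 group. Its log2 signal was 12.90, 12.09 and 11.00 on Ta replicates 1, 2 and 3, and 12.74, 12.26 and 13.07 on Ti replicates 1, 2 and 3. Ta replicate 1 lay among the Ti arrays, and Ta replicate 3 lay 1.68 below the Ti mean, so the groups overlapped. The mean was 11.998 ± 0.950 (SD, n = 3) on Ta and 12.69 ± 0.40 (SD, n = 3) on Ti. The difference was -0.69 (SE 0.48, 95% interval -1.87 to 0.48), with an adjusted p of 0.382 in limma. The pooled SD within groups, 0.73, was at the 97.7th percentile of all genes, and the interval includes 0. The difference was -0.19 without Ta replicate 3 and -1.14 without Ta replicate 1, neither called.

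The second Cybb probe, shown above, gave a like pattern from another stretch of the transcript. It read 10.08, 9.47 and 8.43 on Ta and 9.80, 9.48 and 10.05 on Ti, with Ta replicate 3 again the lowest. Its difference was -0.45 (SE 0.41, adjusted p = 0.501 over all probes, limma). The gap between the probes stayed between 2.57 and 3.02 over the 6 arrays, and their differences between surfaces differed by -0.24 (exact permutation p = 0.2, two-sided).

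Cyba, the p22phox subunit that stabilises both Cybb and Nox4 proteins, was nearly flat. The arrays read 16.03, 16.01 and 15.97 on Ta and 15.93, 15.96 and 16.04 on Ti. The groups overlapped, with 1 Ti array the highest and another the lowest of the 6. The difference was 0.03 (SE 0.08, 95% interval -0.16 to 0.21, adjusted p = 0.833, limma), so a change beyond about 0.21 in either direction lies outside the interval. Its SD within groups was at the 3.95th percentile of all genes. The probe was printed in 10 spots, and the SD of its usable spots on an array ran from 0.0496 to 0.0619. It was a bright probe, with an unscaled processed signal of 57827 to 72282. Whether a probe at this level shows changes in full was not tested. The sign is not settled, since the difference was -0.03 with quantile scaling, -0.01 with median scaling and -0.01 with array weights. The core subunits of the flavocytochrome thus gave unlike patterns across arrays, Cyba within 0.12 log2 units and Cybb over 2.06.

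Ncf1 encodes p47phox, the organiser whose phosphorylation starts assembly. Its log2 signal was 13.59, 13.48 and 13.10 on Ta and 12.96, 13.09 and 13.07 on Ti. All 3 Ta arrays lay above all 3 Ti arrays, but Ta replicate 3 only just. The difference was 0.35 (SE 0.14, 95% interval 0.01 to 0.69), with an unadjusted p of 0.0444 and an adjusted p of 0.156 in limma. The exact permutation p was 0.1 (two-sided), the smallest that 3 against 3 arrays allow. The second Ncf1 probe also had every Ta array above every Ti array, at 9.89, 9.82 and 9.39 on Ta and 9.11, 9.25 and 9.20 on Ti. Its difference of 0.51 (SE 0.15, adjusted p = 0.0867) was not called either, but passed with normexp background correction (0.48, adjusted p = 0.0444), where 13.0% of all probes were called. It also passed with eBayes trend and robust settings (adjusted p = 0.0491), where 10.4% were. The probes' differences between surfaces differed by -0.16 (exact permutation p = 0.1, two-sided), so they had the same sign but not the same size.

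Ncf4 encodes p40phox, which binds phosphatidylinositol 3-phosphate on phagosomes. The log2 signal was 11.59, 11.44 and 10.74 on Ta and 11.08, 11.12 and 11.13 on Ti. The Ti arrays lay within 0.044 of each other, with Ta replicates 1 and 2 above them and Ta replicate 3 below. The difference was 0.14 (SE 0.22, 95% interval -0.40 to 0.68, adjusted p = 0.703, limma). It was 0.40 without Ta replicate 3 (adjusted p = 0.148) and -0.02 without Ta replicate 1, so single Ta arrays set its size and sign.

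Rac2 is the Rac protein of blood cells and the form used by the neutrophil oxidase. Its log2 signal was 12.95, 13.00 and 12.65 on Ta and 13.04, 12.77 and 13.19 on Ti, so the groups overlapped. The difference was -0.13 (SE 0.15, 95% interval -0.50 to 0.23, adjusted p = 0.58, limma). Without Ta replicate 3 it was -0.03, without Ti replicate 3 -0.04 and without Ti replicate 2 -0.25. Its 10 spots agreed to an SD of at most 0.0456 on an array.

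Rac1, the Rac protein of most cell types, lay slightly lower on every Ta array. The brighter probe gave a log2 signal of 12.58, 12.58 and 12.49 on Ta and 12.82, 12.68 and 12.80 on Ti. The difference was -0.22 (SE 0.08, 95% interval -0.41 to -0.02), with an unadjusted p of 0.0361 and an adjusted p of 0.139 in limma. The second probe, which crosses an intron, also lay lower on every Ta array, at 10.68, 10.77 and 10.69 against 11.15, 10.82 and 11.17. Its difference was -0.33 (SE 0.12, adjusted p = 0.129), and without Ti replicate 2 it was -0.45 and passed (adjusted p = 0.0412), as did 9.50% of all probes. Rac genes share much of their coding sequence, and binding of one Rac transcript to another's probe was not tested.

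Nox4, the oxidase of non-phagocytic cells, also lay lower on every Ta array. The log2 signal was 5.58, 5.20 and 5.57 on Ta and 6.25, 5.70 and 6.04 on Ti. The highest Ta value and the lowest Ti value were closer to each other than the SD of either group. The difference was -0.55 (SE 0.18, 95% interval -0.97 to -0.12), with an unadjusted p of 0.0198 and an adjusted p of 0.103 in limma, and the exact permutation p was 0.1. This was a dim probe, with an unscaled processed signal of 35.5 to 88.2, although it was well above background on all 6 arrays. With normexp background correction the difference was -0.14 (adjusted p = 0.251), so the size depends on how background was removed. The other Nox4 probe, shown above, was well above background on 0 of 6 arrays and gave no reading, so Nox4 rests on 1 probe.

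**Figure D2:**
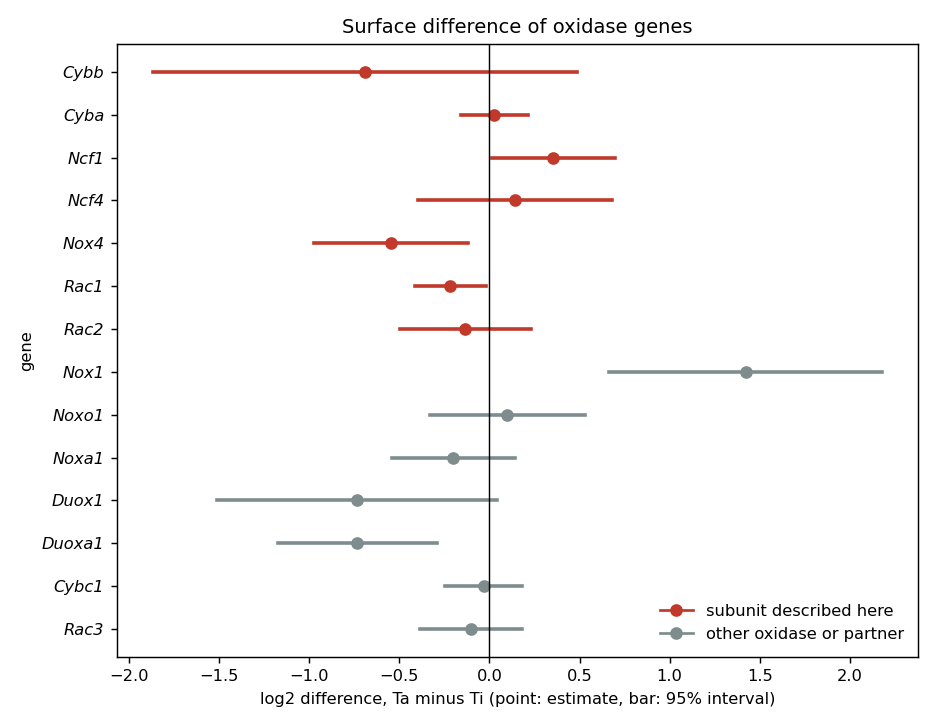
Log2 difference, Ta minus Ti (horizontal axis, points), with its 95% interval from limma (bars), for the 7 oxidase subunits (red) and 7 tested genes of the other oxidases and partners (grey). Among the subunits, the intervals of Ncf1, Nox4 and Rac1 lie to 1 side of 0 before adjustment for multiple tests, and that of Cybb runs from -1.87 to 0.48. Among the grey genes, those of Nox1 and Duoxa1 also lie to 1 side of 0.

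The 7 genes did not share 1 pattern across arrays. Ta replicate 3 was the lowest Ta array for 6 of them, all but Nox4, where it was the lowest for 30.4% of all genes. The distance differed in size: relative to the Ti mean, Ta replicate 3 was at -1.68 for Cybb, -0.38 for Ncf4, -0.35 for Rac2 and -0.28 for Rac1, but at 0.07 for Ncf1 and -0.0026 for Cyba. Ta replicate 1 was above the Ti mean by 0.55 for Ncf1, 0.48 for Ncf4 and 0.21 for Cybb. With limma array weights 4 of the 7 were called, beside 51.9% of all genes. The weight of Ta replicate 2 was then 7.34, and those of the remaining arrays ran from 0.319 to 2.75. These were Cybb (-0.90, adjusted p = 0.0330), Nox4 (-0.80, adjusted p = 0.00239), Rac1 (-0.22, adjusted p = 0.0117) and Ncf1 (0.41, adjusted p = 0.0102). That fit rests largely on 1 Ta array. Row 1 of the slide held the Ta arrays and Ti replicate 1, and row 2 the remaining Ti arrays; with slide row as a block 0 of the 7 were called and 1 had an unadjusted p under 0.05.

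Markers of macrophages and monocytes moved with these arrays. All 18 listed markers were tested, and each was lowest among the Ta arrays on Ta replicate 3. Their mean log2 signal was 11.51, 10.61 and 9.80 on Ta replicates 1, 2 and 3, and 11.88, 11.84 and 11.96 on the Ti arrays. None (0) was called, 11 were lower and 1, Cd14, was higher at an unadjusted p under 0.05 (30.0% of all genes passed that), and the median difference was -1.22. Without Ta replicate 1, 13 of the 18 were called, where 16.4% of all genes were. The largest differences were in the complement genes C1qc (-3.08, SE 0.77, adjusted p = 0.0700, limma) and C1qb (-2.83, SE 0.71, adjusted p = 0.0695). Cybb, Cyba, Ncf1 and Ncf4 had the same order of Ta arrays as the marker mean, but differed in size. Cybb spanned 1.89 over the Ta arrays, Ncf4 0.85, Ncf1 0.49 and Cyba 0.05. On Ta replicate 3 Cyba and Ncf1 lay within 0.07 of their Ti mean. The part of the marker genes in the oxidase values was not tested.

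**Figure D3:**
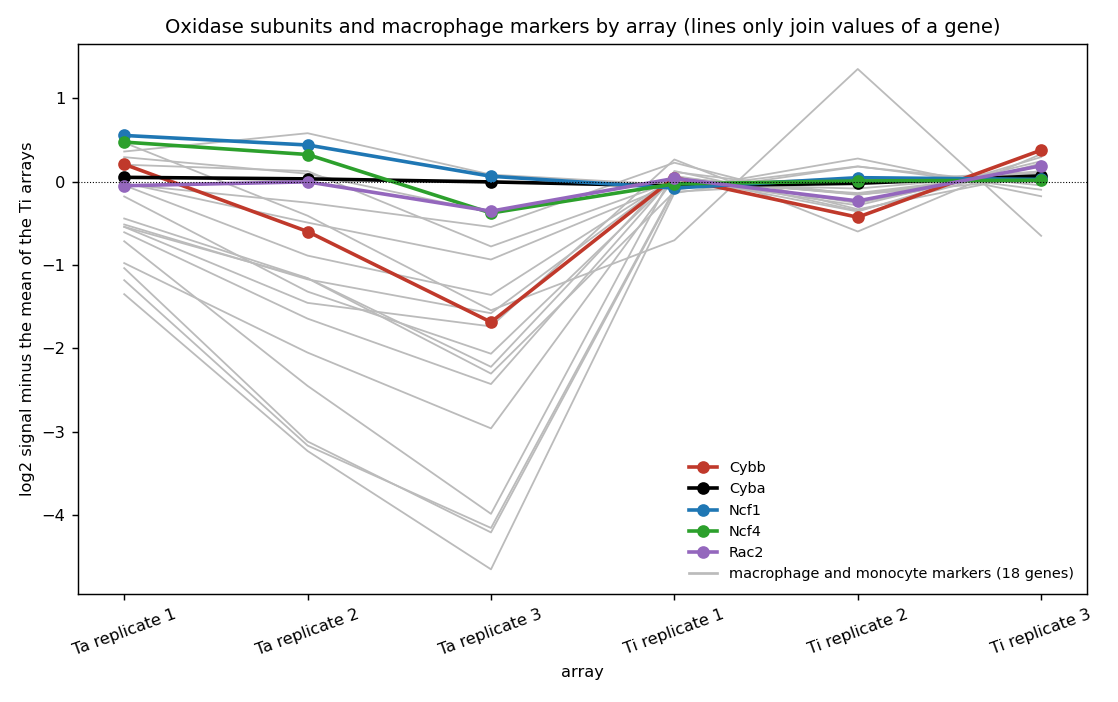
Log2 signal of each gene minus its mean on the Ti arrays (vertical axis) for the 6 arrays, with 5 oxidase subunits in colour and the 18 macrophage and monocyte markers in grey; lines only join the values of a gene. On Ta replicate 3 Cybb lies at -1.68 and Cyba and Ncf1 stay near 0.

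Of 11 neutrophil markers 5 were tested, and 2 were called higher on Ta, where 2.67% of all genes were. They were S100a8 (2.95, SE 0.50, adjusted p = 0.0446) and Camp (1.68, SE 0.30, adjusted p = 0.0451) in limma. The others were not called: Mpo differed by 1.66 (1.50 with arrays below background raised to the floor given below), Mmp9 by 0.63 and Csf3r, on the other side, by -0.88. The defining granule genes Elane, Ltf and Ngp, with S100a9 and Cxcr2, were well above background on 0 arrays and Mmp8 on 2. The mean of the tested neutrophil markers was 7.04 to 7.48 on Ta and 5.91 to 6.25 on Ti. Of 6 tested mast cell and basophil markers 4 were called lower on Ta, Cma1 among them, where 1.48% of all genes were. Kit fell by 2.56, Mcpt8 fell by 2.16 and Cpa3 fell by 1.93. A second Mcpt8 probe gave -0.41, but it read only 2.50 to 4.15 over the arrays. The lowest signal well above background on an array was 3.37 to 3.82, so that probe was near background and the gene is uncertain. Cma1 was above background on 0 of the 3 Ta arrays and passed the filter on dim probes only through the Ti arrays. Its call rests on the group where it was high and is not taken as support. It was at least 3.50-fold lower on Ta. That bound sets the Ti mean against the mean, over the Ta arrays, of the higher of the probe's signal and the lowest signal well above background. For Cpa3 only 1 of the 3 Ta arrays reached this level, and the difference was -1.63 with the others raised to that floor. Hdc lay the other way, higher on every Ta array (0.73, adjusted p = 0.0563), and its dimmer second probe gave 0.86 (adjusted p = 0.0393 over all probes). Fcer1a differed by -0.25 and was not called. No osteoclast (0 of 5), endothelial (0 of 4) or lymphocyte (0 of 1) marker was called, where 4.15% of all genes were. At an unadjusted p under 0.05 in limma 3, 1 and 1 of them passed, beside 30.0% of all genes. The largest differences were in Ocstamp (-3.01, or -2.54 with the floor, but 0.14 by a second probe, so the gene is uncertain) and Acp5 (-0.69) for osteoclasts, in Pecam1 (-0.96) and Tek (-0.52) for endothelium, and Cd3d differed by 0.36. Their part in the oxidase values was not tested.

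Of 12 markers of mesenchymal stromal cells, the labelled cell type, 11 passed the filter on dim probes, and Lepr was well above background on 0 arrays. Their mean was 12.72 to 12.80 on Ta and 12.49 to 12.63 on Ti. Cxcl12, a chemokine that holds blood cells in marrow, rose by 1.06 (SE 0.19, adjusted p = 0.0451, limma), and the surface glycoprotein gene Thy1 rose by 0.67 (SE 0.11, adjusted p = 0.0437), although a second Thy1 probe gave 0.36. The remaining 9 were not called. Over all genes the share called was 4.15%.

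Among the other oxidases and their partners 0 of 7 tested genes were called, where 4.15% of all genes were, with a median difference of -0.10. Of these 7 genes 1 was higher and 1 lower at an unadjusted p under 0.05, beside 30.0% of all genes. Nox1, the colon oxidase that uses its own organiser and activator, came nearest: it was 8.25, 8.89 and 9.03 on Ta and 7.01, 7.88 and 7.01 on Ti. Every Ta array was above every Ti array, and the difference was 1.42 (SE 0.31, adjusted p = 0.0580, limma). Its organiser Noxo1 differed by 0.10 and its activator Noxa1 by -0.20. Duox1 and its maturation factor Duoxa1 both differed by -0.73 (adjusted p = 0.185 and 0.0692), Cybc1, a chaperone of the flavocytochrome, by -0.03 and Rac3 by -0.10. Nox3 and Duoxa2 were well above background on 0 arrays and Duox2 on 1.

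Of 20 regulators of assembly and activity 0 were called, while 5 were higher and 6 lower at an unadjusted p under 0.05, beside 30.0% of all genes. Without Ta replicate 1, 7 were called, where 16.4% of all genes were. Their median difference was -0.10. Prkcb, a protein kinase C that phosphorylates p47phox in phagocytes, differed most (-1.66, SE 0.44, adjusted p = 0.0739, limma), and its second probe gave -1.62. Nrros, which limits reactive oxygen species in phagocytes by promoting loss of gp91phox, differed by -1.28 (SE 0.37, adjusted p = 0.0891). Both were lower on every Ta array than on any Ti array.

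Among receptors that trigger the oxidase 1 of 13 tested genes was called, where 4.15% of all genes were, and the list's median difference was -0.23. Tlr2, which recognises bacterial lipoproteins, rose by 1.16 (SE 0.20, adjusted p = 0.0451, limma), from 12.49, 12.52 and 12.39 on Ti to 13.17, 13.97 and 13.73 on Ta. Fcgr3a, an IgG receptor named here after its values were seen, differed by -2.10 (SE 0.42, adjusted p = 0.0513). It was 7.06, 6.21 and 5.47 on Ta and 8.47, 7.90 and 8.67 on Ti. Of the 7 myeloid transcription factors that bind oxidase promoters 0 were called, with a median difference of -0.08. Irf8 differed by -1.33 (SE 0.35, adjusted p = 0.0755, limma, and -0.51 by a second probe) and Cebpa by -0.89 (SE 0.28, adjusted p = 0.0981). At an unadjusted p under 0.05 in limma 2 of the 7 were higher and 2 lower, beside 30.0% of all genes.

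The genes for removal of superoxide and peroxide, from any source in the cell, had 2 calls among 14, where 4.15% of all genes were called. Sod2, the mitochondrial superoxide dismutase, rose by 1.47 (SE 0.19, adjusted p = 0.0397, limma), from 11.26, 11.78 and 11.33 on Ti to 12.67, 13.14 and 12.98 on Ta. Prdx4, a peroxiredoxin of the endoplasmic reticulum, fell by 0.47 (SE 0.09, adjusted p = 0.0491), at 10.83, 10.93 and 10.90 on Ta and 11.37, 11.23 and 11.46 on Ti. Neither gene's groups overlapped. The differences of 12 of the 14 were above 0, and the median was 0.20, beside 0.03 over all genes. Leaving out Ta replicate 1 raised the share of all genes called to 16.4%. The count was then 6 in this list, 4 among the trigger receptors, 3 among the transcription factors and 3 among the other oxidases. It was 4 for neutrophil, 4 for mesenchymal, 2 for osteoclast and 2 for endothelial markers.

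**Figure D4:**
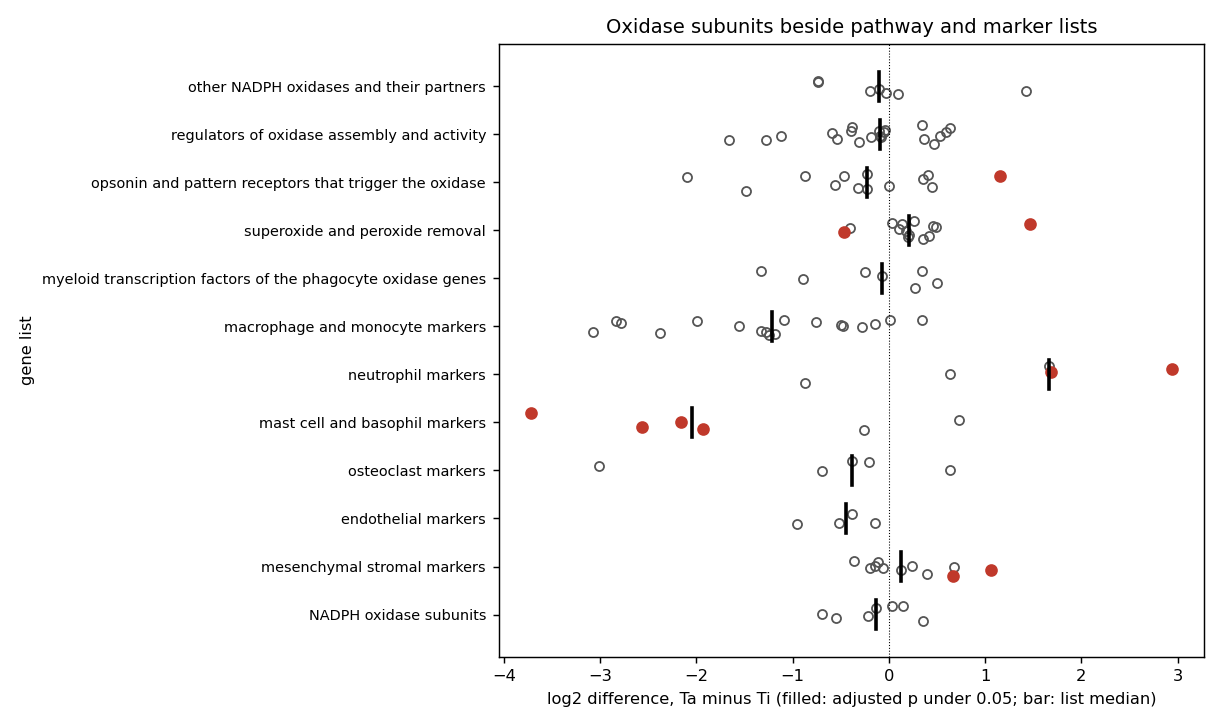
Log2 difference, Ta minus Ti (horizontal axis), of each tested gene in 11 gene lists and the 7 oxidase subunits, with genes at an adjusted p under 0.05 filled and list medians as bars. The subunits lie between -0.69 and 0.35 with none filled, while the macrophage list centres on -1.22 and the mast cell list on -2.05. The mast cell list includes Cma1, which passed the filter on dim probes only through the Ti arrays.

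The genes most like each subunit were taken as the 3 with the highest Pearson r over the 6 arrays, as a description of these arrays. They were sought among the tested genes with a gene symbol, without those under placeholder names. For Cybb these were Xpot (r = 0.993), Lonrf3 (0.992) and Ptpro (0.991), and for Rac2 Adgre5 (0.989), Oas1k (0.984) and Secisbp2l (0.978). For Ncf1 they were Vsig10l (0.987), Nlrc4 (0.983) and Slc22a4 (0.982), and for Ncf4 Mettl4 (0.989), Vnn1 (0.988) and Zfp17 (0.984). For Nox4 they were Ptp4a3 (0.997), Adrb3 (0.993) and Rab38 (0.993), and for Rac1 Nbea, Loxl4 and Zfp24 (all 0.997). Cyba was followed less closely, by Ndufv2 (0.972), Ndufb6 (0.960) and Ppp6c (0.955). None of these neighbours is another oxidase subunit. None (0 of 21) was called in the limma comparison of the surfaces, where 4.15% of all genes were. They were picked for likeness to genes that were not called, so this count is no separate result.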

How the data were processed

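The deposited processed signal is a linear intensity, made by the scanner software with background subtraction and spatial and multiplicative detrending but no scaling across arrays, per the file headers. The tools that the submitters' processing notes list are Agilent Feature Extraction 12.0 and limma. The value table of the series held the same intensities (100% of values). For Ta replicate 2 and Ti replicate 3 they were rounded to 3 significant digits.

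Flagged outlier spots (0.577% to 0.841% of 58717 non-control spots) were dropped, log2 signals were scaled to the 75th percentile, and spots of a probe were averaged. Of 45598 probes, 31230 were named through a RefSeq GRCr8 table and the others kept the array's name. A probe was kept if most of its spots passed the scanner's test against background on 3 or more of the 6 arrays (25764 probes; 25756 had no missing value). The brightest probe stood for a gene. Genes were compared with limma 3.58.1 (lmFit, eBayes) in R 4.3.3, two-sided. On simulated data of 19569 genes with 200 changed, the test recovered 67% of genes changed by 1 (log2) and 94% of those changed by 2, with 6 false among 167 calls. The simulated noise was independent between genes and arrays, at each gene's SD within groups. It held no variation shared by many genes on an array, so these rates need not hold for the real arrays. No change smaller than 1 was simulated. The number of arrays limits the precision, and nothing beyond the design text says how separate the cultures were.

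Named genes are all members and their probes, up to 4 called genes per list by size of change or up to 2 by size where none was called. The 3 nearest genes with a symbol per member are also named. Apart from an item that is not reported here, the other oxidases are named in full, and Cd14, Fcgr3a, the uncalled neutrophil and mast cell markers and genes not above background were added after their values were seen. The members and lists were chosen with earlier results of these data known. Same-numbered arrays of the 2 groups correlated weakly in their deviations (r = 0.06, 0.13 and -0.18), so the replicate numbers were not taken as pairs. The 18 alternatives were other scalings, normexp correction with an offset of 50, other filters, variance models, array weights, probe averaging, blocks and leaving out each array.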

Additional observations from a re-analysis of the deposited data

How the results depend on the processing

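None (0) of the 7 oxidase genes was called under 17 of the 18 alternatives; with array weights 4 were. Between 0 and 4 passed an unadjusted p under 0.05. Directions held except for Cyba, at -0.026 with quantile scaling, -0.0066 with median scaling and -0.0072 with array weights, and Ncf4, whose range was -0.025 to 0.40 when an array was left out. Of the member probes 6 were called with array weights, 1 with normexp correction, 1 with trend and robust eBayes, and 0 to 1 when an array was left out. Of all genes 813 were called. The count was 10162 with array weights, 2596 with normexp correction, 2092 with trend and robust eBayes, and 0 to 3212 when an array was left out. Without the filter on dim probes limma called 0 (5814 at an unadjusted p under 0.05), and with slide row as a block 0 (3832), where only Ti replicate 1 stands against the Ta arrays. Of the pathway and marker genes 11 were called, 80 with array weights, 39 with normexp correction, 28 with trend and robust eBayes, 0 without the filter, 0 with slide row as a block, and 0 to 52 when an array was left out. With the replicate number as a block (replicate block) 8 genes were called, 1 of them in the lists and 0 among the oxidase genes. The causes were not tested.

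The median of all probes, Ta minus Ti, was -0.033 in the scaling used and 0.11 with normexp correction. Calls split into 523 higher and 290 lower, against 416 and 363 with median scaling. With genes below background raised to the floor, the list median was 1.50 for neutrophil, -1.72 for mast cell and -0.46 for osteoclast markers, against 1.66, -2.05 and -0.38. Dim probes such as that of Nox4 limit what the arrays can show.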
